A study of Mus musculus with 2 samples.

Results

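The genes of mitosis and of the mitotic spindle were compared between control T cells of the mouse and T cells exposed to cells of the retinal pigment epithelium (RPE), the pigmented layer that underlies the photoreceptors. The set held 44 genes chosen by function: mitotic kinases and cyclins, checkpoint and kinetochore proteins, kinesins, spindle and cytokinesis proteins, and regulators of anaphase. A gene was measured where a probe set, a group of short probes read out as 1 signal, was annotated to that gene and no other. This held for 43 of the 44 genes, with 90 probe sets, out of 18193 genes with 34945 such probe sets on the array. The B-type cyclin gene Ccnb1 is not analysed here.

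There was 1 array for each group. Control T cells were titled as CD4 T cells. Both samples came from male mice on a C57 BL/6 background, 6 weeks old. The exposed sample was titled T cells, while its tissue field named primary cultured RPE. The labels used here do not say how, if at all, the cells were activated. Nor do they say how long and in what way the cells met the RPE, or whether animals were pooled. Since each group was 1 array, differences between samples of a group are unknown, nothing was tested, and precision is limited by the number of arrays. In RNA from whole samples, a different share of dividing cells and a different amount of transcript per dividing cell cannot be told apart.

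Cells that divide switch on most of these genes together in G2 and mitosis and silence them when they stop dividing. Transcripts of these genes therefore mark cycling cells. Cyclins bound to Cdk1 start mitosis, the chromosomal passenger complex and the checkpoint kinases supervise attachment of chromosomes to the spindle, and Cdc20 with the anaphase-promoting complex ends it. Many of their promoters carry a cell cycle genes homology region (CHR), a hexamer bound by the MuvB complex with B-Myb and Foxm1 or with repressing pocket proteins, near CCAAT boxes, which bind the factor NF-Y.

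The promoters are shown because these letters are a feature that many of the genes shared and that their selection did not use. The letters are from RefSeq on build GRCm38.p6, run 5′ to 3′ on the strand of the gene, and end at the base before an annotated transcription start. The stretch of Top2a lies within the annotated Top2a gene. Capitals mark exact matches to either motif, and other forms of the motifs were not searched. The CHR hexamer reads TTTGAA on the strand of the gene. When the match lies on the opposite strand it is printed as TTCAAA. The box bound by NF-Y reads CCAAT on the strand of the gene. When that match lies on the opposite strand it is printed as ATTGG. Ccnb2, Kif11 and Cdc20 were among the genes with the larger differences, and Top2a, Ube2c and Cdk1 had small ones. Birc5 had a large difference and no exact match to either motif.
Ccnb2 (chr9:70421555-70421674, minus strand): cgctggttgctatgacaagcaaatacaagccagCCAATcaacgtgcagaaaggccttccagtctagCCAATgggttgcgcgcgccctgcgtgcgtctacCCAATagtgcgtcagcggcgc
Kif11 (chr19:37376262-37376381, plus strand): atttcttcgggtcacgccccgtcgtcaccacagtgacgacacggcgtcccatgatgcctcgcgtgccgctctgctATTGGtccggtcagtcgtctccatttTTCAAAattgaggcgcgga
Cdc20 (chr4:118437344-118437463, minus strand): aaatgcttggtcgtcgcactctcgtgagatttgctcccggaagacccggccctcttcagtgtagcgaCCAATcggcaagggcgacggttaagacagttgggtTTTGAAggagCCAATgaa
Top2a (chr11:99024190-99024309, minus strand): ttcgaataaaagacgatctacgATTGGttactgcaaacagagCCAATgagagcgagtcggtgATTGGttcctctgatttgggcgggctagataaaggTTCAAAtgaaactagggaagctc
Ube2c (chr2:164769809-164769928, plus strand): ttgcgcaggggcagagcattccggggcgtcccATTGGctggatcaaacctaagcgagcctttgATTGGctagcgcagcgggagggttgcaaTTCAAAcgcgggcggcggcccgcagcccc
Cdk1 (chr10:69352913-69353032, minus strand): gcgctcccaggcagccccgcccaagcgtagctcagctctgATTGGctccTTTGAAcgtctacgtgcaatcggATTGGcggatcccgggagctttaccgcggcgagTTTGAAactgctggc
Birc5 (chr11:117849117-117849236, plus strand): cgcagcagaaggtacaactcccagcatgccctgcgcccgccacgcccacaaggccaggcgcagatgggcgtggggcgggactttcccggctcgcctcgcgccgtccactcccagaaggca

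Transcripts of the mitosis and spindle genes were present at similar signals in both samples, with a small shift toward higher signals in RPE-exposed T cells. Of the 43 measured genes, 42 lay above the floor, each array's median signal (15.9 on the control and 16 on the exposed one), on each array, and all 42 had a mean signal of at least 100. None was at least 1.5-fold different in either direction, and 24 of the 42 lay within 1.1-fold, as did 53.63% of all genes of that signal. The median log2 difference, exposed minus control, was 0.094 over the 42 genes, against -0.012 over all 10004 genes above the floor on both arrays. It was positive for 31 genes and negative for 11, and 73.8% positive compares with 47.8% of those 10004 genes. The differences ran from -0.16 for Spc25 to 0.46 for Cdc25c, with an SD between genes of 0.154.

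At least 25% higher in exposed cells were 4 genes, Cdc25c, Birc5, Ccna2 and Ccnb2, and none was 20% lower, which is the same fold downward. Of all 11042 genes compared, 10.9% were higher and 12.7% lower by that fold. Past 1.5-fold the background was 3.14% higher and 3.83% lower, and past 2-fold 0.435% and 0.625%. Brighter genes varied less. At a mean signal of 100 or more, where all 42 members lay, 6.14% of 6334 genes were 25% higher and 7.04% were 20% lower, and 50.2% had a positive difference. At 500 or more, 3 of 25 members (Birc5, Ccna2 and Ccnb2) were 25% higher, against 3.98% of 1933 genes, and none was 20% lower, against 3.16%. Prc1, at 0.32, was the first gene short of the limit, and Ccnb2, at 0.33, the last inside it.

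The most intense genes on the arrays leaned toward the exposed sample. At a mean signal of 500 or more, 58.9% of all genes had a positive difference, with a median of 0.027. The 25 members in that class had a median of 0.067, with 17 positive. In the class from 100 to 500 the 17 members had a median of 0.11, with 14 positive. All genes of 100 or more, the brighter class included, had a median of 0.0008, with 50.2% positive. Genes were also split by mean signal into 20 classes of equal size. Set against the median of the genes in its class, which ran from -0.050 to 0.039, 29 of the 42 members lay above it.

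**Figure D1:**
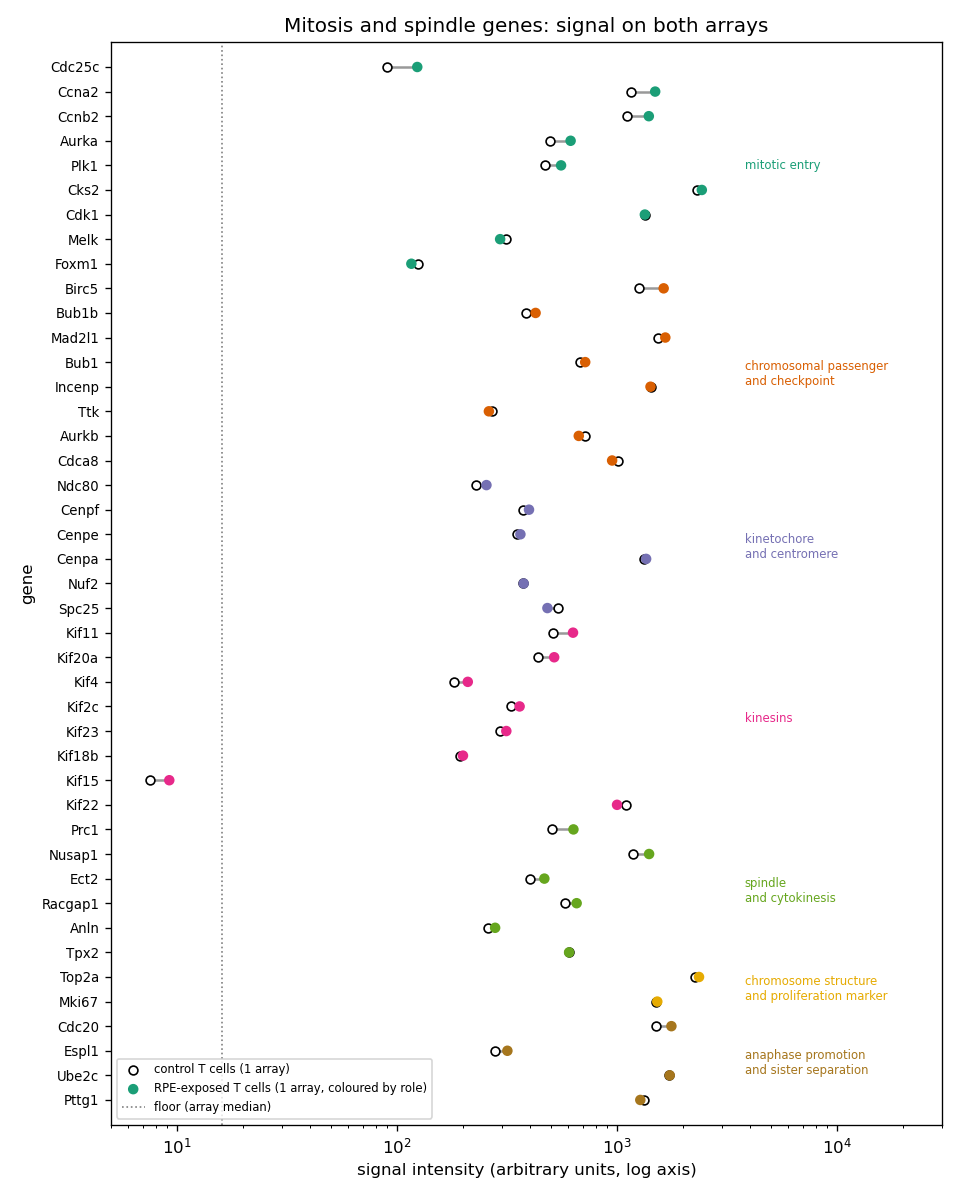
Signal intensity (arbitrary units, log axis) of the 43 measured genes on the control array (open points) and the RPE-exposed array (filled points, coloured by role), with the floor dotted. The pairs of points lie close together throughout, Cdc25c (89.6 and 123.4) has the widest gap among genes above the floor, and Kif15 alone lies under the floor.

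**Figure D2:**
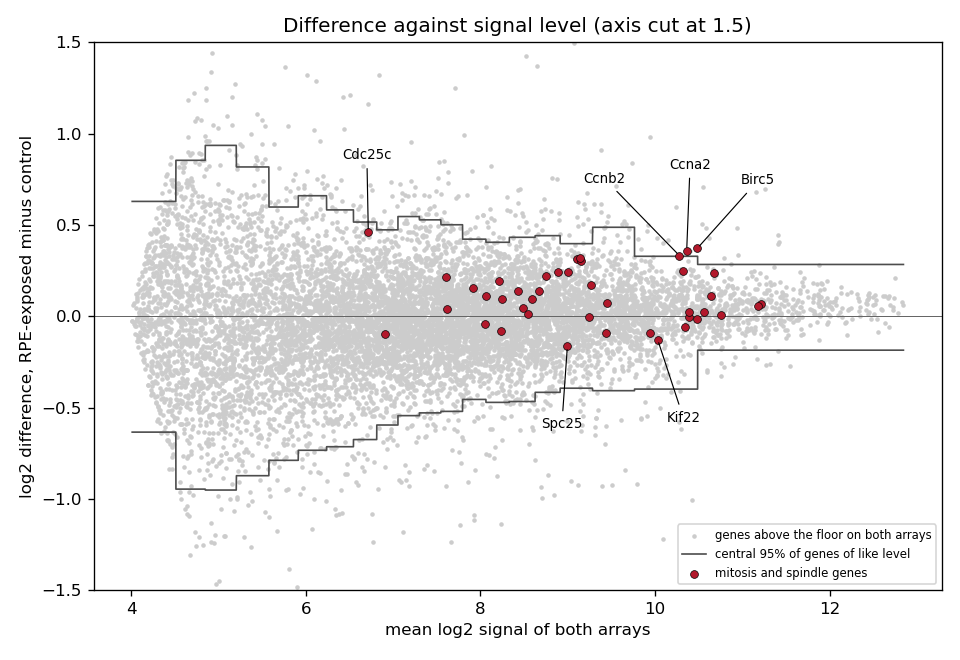
Log2 difference, RPE-exposed minus control, against mean log2 signal for genes above the floor on both arrays (grey) and for the 42 mitosis and spindle genes (red), with lines at the central 95% of genes of like signal level. Most red points lie above 0 and inside the lines, with Birc5, Ccna2 and Ccnb2 just outside the upper line.

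Among the genes of mitotic entry, the cyclins and some of their activators were higher and the catalytic subunit was not. Ccna2 encodes cyclin A, which acts from S phase to early mitosis. Its signal was 1161.3 in control and 1489.5 in exposed cells, 1.28-fold higher (0.36 on the log2 scale). A further probe set gave 843.7 and 941.9 (0.16), so both pointed the same way but differed in size. The central 95% of genes at its level, the like-level range, ran from -0.40 to 0.33, which Ccna2 just passed. Ccnb2 encodes a B-type cyclin, the partner of Cdk1 at mitotic entry. It went from 1107.4 to 1393.6 (0.33, 1 probe set), also just past that range.

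Cdk1, the kinase that these cyclins activate, had nearly equal signals of 1342.0 and 1336.8 (-0.0056). Cks2, a small binding partner of Cdk1, gave 2316.8 and 2427.0, with 0.067 and 0.11 in its 2 probe sets. Cdc25c, the phosphatase that removes inhibitory phosphates from Cdk1, had the highest difference of the set. Its signal was dim, 89.6 in control and 123.4 in exposed cells (0.46), its further probe set gave 0.16, and the like-level range of -0.68 to 0.52 held it.

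Both kinase genes of centrosome maturation were higher. Plk1, a polo-like kinase that drives mitotic entry and exit, had signals of 470.2 and 556.0 (0.24, 1 probe set). Aurka, the centrosomal Aurora kinase, had 494.0 and 614.5 (0.31) in its only probe set above the floor. Each lay inside its like-level range of -0.39 to 0.40. Foxm1, the transcription factor that activates many of these genes, was dim and went the other way, with 123.9 and 116.0 (-0.095). Its 3 probe sets above the floor disagreed in sign, at -0.23, -0.095 and 0.087. Melk, a kinase of dividing cells, had 310.9 and 293.8 (-0.082). Over the 9 measured genes of mitotic entry the median was 0.24, with 6 positive.

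Among the 8 genes of the chromosomal passenger complex and the spindle checkpoint, Birc5 stood by itself. Birc5 encodes survivin, the passenger subunit that targets the complex to centromeres. Its signals were 1257.9 and 1627.7, 1.29-fold higher (0.37, 1 probe set), past its like-level range of -0.40 to 0.33. The other 3 subunit genes of the same complex had differences below 0 in their brightest probe sets. Aurkb, its kinase, gave 713.6 and 669.3 (-0.093), with 0.028 in a further probe set. Incenp, its scaffold, gave 1431.4 and 1418.2 (-0.013), and its 4 probe sets above the floor ranged from -0.25 to 0.082. Cdca8, which encodes borealin, gave 1012.3 and 948.9 (-0.093). Its 3 probe sets ranged from -0.093 to 0.092, and the probe sets of all 3 genes disagreed in sign. The brightest ones of these 3 genes carry an x or s in their names, and that of Birc5 an a, marks for probes that match several transcripts. With such probe sets left out, Incenp was at 0.07 and Cdca8 at 0.092, and Aurkb and Birc5 had no value.

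The checkpoint genes differed little. Bub1 and Bub1b encode kinases at unattached kinetochores. Bub1 had signals of 680.2 and 716.0 (0.074), with -0.084 in a dim further probe set. Bub1b had 387.0 and 425.9 (0.14), with 0.097 in a further probe set. Mad2l1 encodes the protein that holds Cdc20 inactive until attachment is complete, and gave 1535.8 and 1656.2 (0.11, 1 probe set). Ttk, the kinase at the head of the checkpoint, gave 269.4 and 261.2 (-0.045), while its dim probe set gave 31.4 and 39.3 (0.32). The median over the 8 genes of the complex and the checkpoint was 0.030, with 4 positive and 4 negative.

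Kinetochore and centromere genes were near equal. Cenpa, the histone variant that marks centromeres, had signals of 1330.9 and 1354.8 (0.026). Cenpe, a kinesin of the kinetochore, had 351.9 and 363.3 (0.046), and Cenpf, a large kinetochore protein of G2 and mitosis, had 372.7 and 397.5 (0.093). All 3 probe sets of Cenpf were positive, from 0.093 to 0.19, whereas a dim probe set of Cenpe gave -0.17. Ndc80, Nuf2 and Spc25 encode subunits of 1 complex, the Ndc80 complex, which grips microtubules. Their differences were not of 1 sign: Ndc80 gave 228.4 and 254.6 (0.16), Nuf2 gave 372.8 and 375.8 (0.012), and Spc25 gave 540.3 and 482.0 (-0.16). Spc25 had the lowest difference of the whole set, and its dim further probe set was lower still, at 39.9 and 23.8 (-0.75). The median of the 6 genes was 0.036.

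Kinesins, the motors that build and pull the spindle, had a median of 0.14 over 7 genes above the floor, with 6 positive. Kif11, the motor that pushes spindle poles apart, had signals of 511.0 and 630.2, 1.23-fold higher (0.30). Its 3 probe sets were all positive, at 0.055, 0.16 and 0.30. Kif20a and Kif23 encode motors of the central spindle, needed for cytokinesis. Kif20a gave 436.7 and 517.4 (0.24, 1 probe set), and Kif23 gave 293.7 and 313.5 (0.094), with 0.28 in a dim further probe set. Kif4, a chromosome-bound motor, gave 180.5 and 209.4 (0.21, 1 probe set).

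Kif2c, a microtubule depolymerase at centromeres, gave 328.0 and 360.3 (0.14) in its brightest probe set. Its other bright probe sets gave 0.29 and 0.38, and its dimmest -0.26. Kif18b, another depolymerase, gave 193.5 and 199.1 (0.041). Kif22, a motor of chromosome arms, was the negative one at 1091.8 and 999.2 (-0.13). That brightest probe set carries an x in its name, the manufacturer's mark for probes shared with other sequences. Its other probe sets gave 201.4 and 208.8 (0.052) and 353.1 and 469.2 (0.41), so the sign of Kif22 depends on the probe set. Kif15 was not above the floor, with 7.5 in control and 9.2 in exposed cells, and no difference is given for it.

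Spindle assembly and cytokinesis genes had a median of 0.20, with 5 of 6 positive. Prc1, which bundles the microtubules of the central spindle, had signals of 506.7 and 632.9 (0.32). Its other probe set gave 295.7 and 421.1 (0.51), the highest value of any bright probe set of the 43 genes. Racgap1 and Ect2 encode partner proteins that act at the division plane in cytokinesis. Racgap1 gave 581.5 and 654.6 (0.17), with 0.12 in a further probe set, and Ect2 gave 400.5 and 466.8 (0.22, 1 probe set). Anln, the contractile-ring protein anillin, gave 258.1 and 278.8 (0.11). Nusap1 encodes a microtubule-bundling protein. It gave 1174.9 and 1397.6 (0.25), but its dim probe set gave 27.6 and 19.8 (-0.48). Tpx2, which activates Aurka on the spindle, gave 606.5 and 604.9 (-0.0038), and its 4 probe sets ranged from -0.31 to 0.44.

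The common proliferation marker Mki67, which encodes Ki-67, had equal signals to within 1.1-fold, 1500.5 and 1522.7 (0.021). Top2a, the topoisomerase that untangles sister chromosomes, gave 2264.7 and 2357.1 (0.058) in its brightest probe set and 291.9 and 360.9 (0.31) in another. Among the genes that trigger anaphase, Cdc20, the activator of the anaphase-promoting complex, was higher at 1500.8 and 1765.2 (0.23). All 3 of its probe sets were positive, from 0.13 to 0.36. Ube2c, the ubiquitin-conjugating enzyme of that complex, was equal at 1727.2 and 1734.2 (0.0058). Pttg1, or securin, the inhibitor that the complex destroys, gave 1327.3 and 1274.6 (-0.058), with 3 negative probe sets from -0.49 to -0.0099. Espl1, or separase, the protease that securin restrains, gave 277.1 and 317.0 (0.19, 1 probe set). For 13 genes the sign turned under another scaling, floor or choice of probe set: Anln, Bub1, Cdca8, Cdk1, Cenpa, Cenpe, Incenp, Kif22, Mki67, Nusap1, Tpx2, Ttk and Ube2c.

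The probe sets give a measure of spread within these arrays, which takes in no differences between samples of a group. Of the 90, 80 lay above the floor on both arrays, 58 with a positive and 22 with a negative difference, and their median was 0.095. The 63 with a mean signal of 100 or more had an SD of 0.16, and the 17 dimmer ones an SD of 0.33. Of the 63 bright ones 49 were positive, 8 were at least 25% higher and none was 20% lower, against 50.3%, 6.31% and 7.29% of 9749 probe sets of that signal on the array. Of the 17 dim ones 9 were positive, 2 were 25% higher and 3 were 20% lower, against 46.2%, 16% and 18.6% of 8500. For 25 genes with several probe sets above the floor, 12 had only positive ones, 2 (Spc25 and Pttg1) only negative ones, and 11 disagreed in sign. The pooled SD between probe sets of 1 gene was 0.21, dim ones included. Over all genes it was 0.31 for probe sets under 100, 0.18 from 100 to 500, and 0.10 in the brightest class, 500 or more. Such probe sets are not replicates of cells or arrays.

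**Figure D3:**
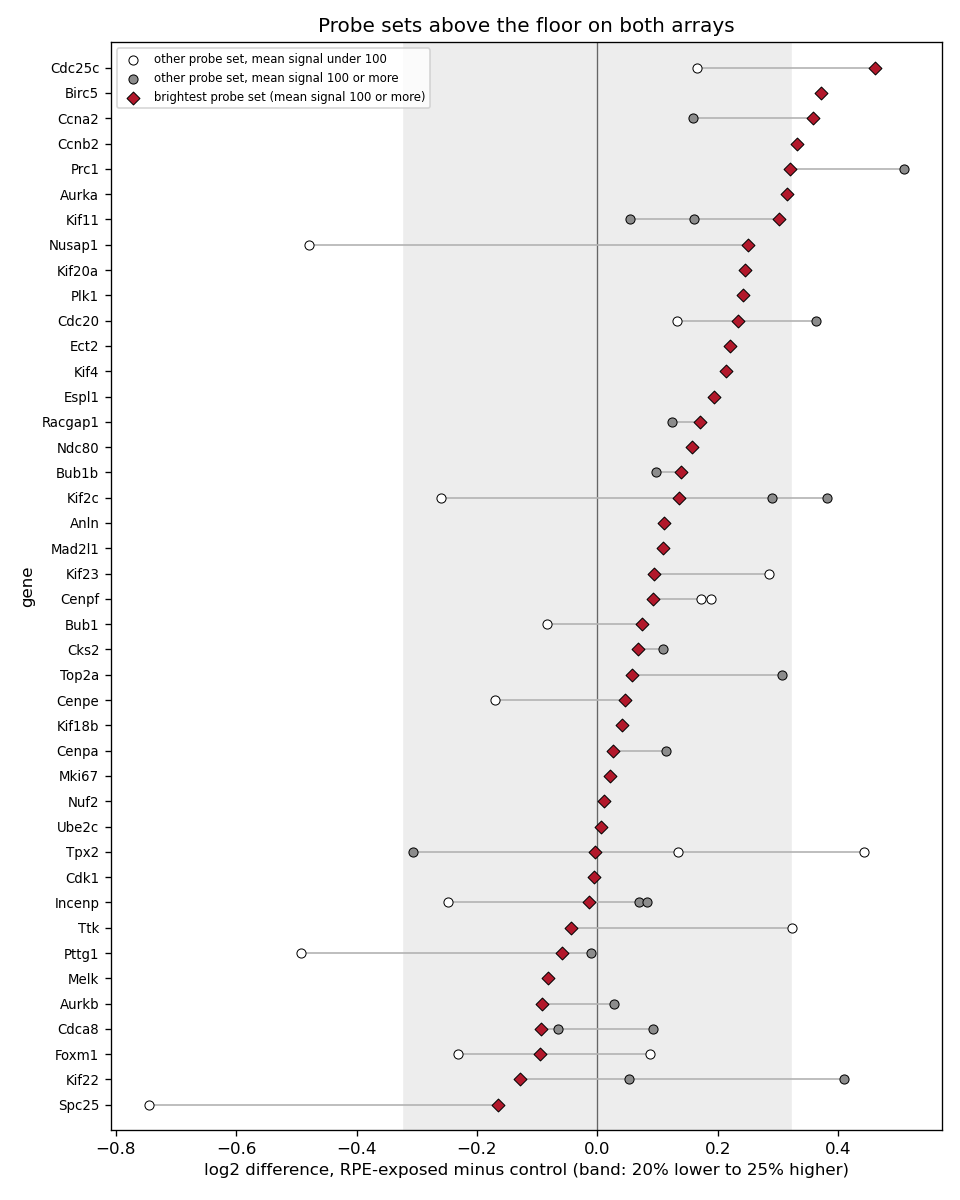
Log2 difference, RPE-exposed minus control, for the 80 probe sets that passed the floor on each array, grouped by gene and ordered by the brightest probe set (diamonds), with other probe sets as circles and the span from 20% lower to 25% higher shaded. Most diamonds lie right of 0 inside the band, and the far left points of Spc25, Pttg1 and Nusap1 come from dim probe sets, drawn as open circles.

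In the promoters of these genes the CHR hexamer and CCAAT boxes were common. RefSeq promoters, from 250 bases before to 50 after an annotated start, were at hand for 37 of the 44 genes (39 promoters). TTTGAA, on either strand, was found in 29 of the 39 (74.4%), against 17.9% of all 32851 promoters and 12.2% of the 11497 promoters of genes compared. Within 60 bases before the start or the 50 bases after it, 27 of the 39 held the hexamer (69.2%), against 5.5% of all promoters. CCAAT, on either strand, was found in 29 of the 39 (74.4%), against 37.4% of all promoters. At least 2 CCAAT matches were found in 51.3% and 11.7%, and both motifs in 64.1% and 6.95%. Matches to the 2 motifs can share a base at their ends, and 1 pair in these promoters did. A match describes letters and is no evidence of binding.

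Genes with and without TTTGAA had overlapping ranges of difference. Promoters were not at hand for Cdc25c (0.46), Ccna2 (0.36), Kif20a (0.24), Tpx2 (-0.0038), Incenp (-0.013), Aurkb (-0.093) and Foxm1 (-0.095). These genes are in neither group, although Cdc25c and Ccna2 were among those at least 25% higher. The 26 measured genes with the hexamer had a median difference of 0.12 and ran from -0.16 (Spc25) to 0.33 (Ccnb2), with 21 positive. The 9 without it had a median of 0.067 and ran from -0.082 (Melk) to 0.37 (Birc5), with 7 positive. In the printed sequences, Cdc20 holds the hexamer 18 bases and Kif11 19 bases before the start, and both were higher by 0.23 and 0.30. Ube2c holds it 29 bases before the start and Cdk1 15 and 71 bases before, and both were equal between the arrays. Ccnb2 holds it outside the printed stretch, with left ends 167 bases before the start and at base 5 of the transcript. Neither motif was found in the windows of Birc5 and Nusap1, at 0.37 and 0.25, or in those of Pttg1, Melk, Nuf2 and Mad2l1.

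**Figure D4:**
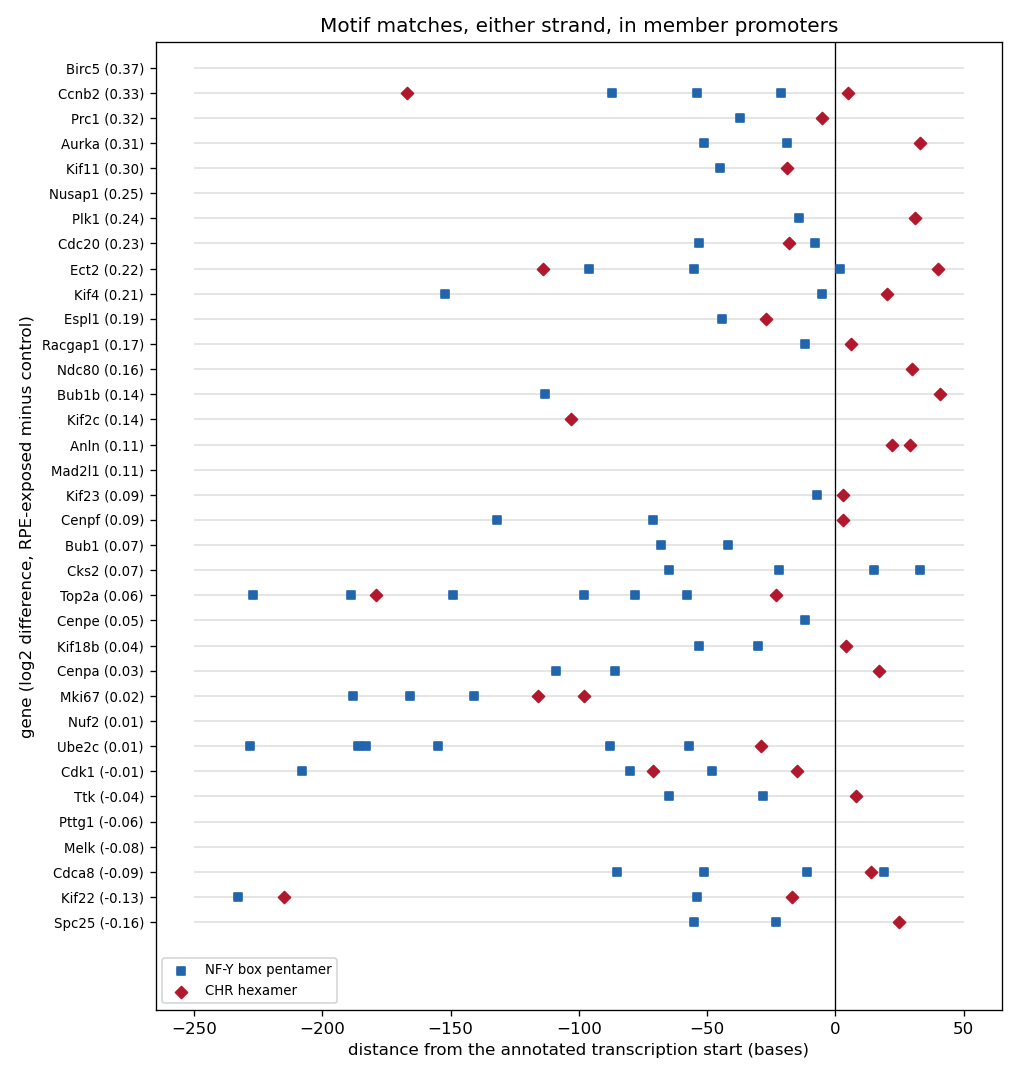
Positions of CHR hexamer matches (red diamonds) and NF-Y box pentamer matches (blue squares), on either strand, relative to the annotated start (the most upstream one at hand) of 35 measured genes. Genes are ordered by log2 difference (in brackets, RPE-exposed minus control). Red matches gather close to the start both in genes at the top, such as Prc1 (0.32), and in genes near 0 or below, such as Cdk1 (-0.0056) and Spc25 (-0.16).

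Further genes of mitosis gave values of similar size. In a list of 85 other mitosis genes, of which 78 lay above the floor, the median was 0.084 and 60 were positive. Of these, 8 were at least 25% higher and none was 20% lower, against 10.9% and 12.7% of all 11042 genes compared. Past 1.5-fold higher were 2, against 3.14% of all genes. They were Cdca3, an adaptor for the degradation of the kinase Wee1 (634.9 and 1135.8, 0.84), and Depdc1b (120 and 190.1, 0.66). The lowest was Oip5, a centromere-loading factor, at 126.4 and 106.7 (-0.24). Genes of the anaphase-promoting complex, which is present in resting cells too, had a median of 0.0083 over 15 genes, with 8 positive. Besides subunits the list held Ube2s, a ubiquitin-conjugating enzyme gene (2053.1 and 2175.2, 0.083). Differences in this list ran from -0.43 for Anapc10 (457.7 and 338.7) to 0.17 for Anapc15 (341.1 and 382.5).

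Regulators of the transcription of mitotic genes had a median of 0.043 over 21 genes, with 11 positive. The list held transcription factors, cofactors and the cell cycle inhibitor gene Cdkn1a. The lowest was E2f1, an activator of S-phase genes, at 152.0 and 110.2 (-0.46), and the highest Tfdp2, a partner of E2F proteins, at 73.4 and 100.9 (0.46). E2f8, a repressing E2F, had 138.7 and 188.7 (0.44), and Mybl2, which encodes B-Myb, had 162.0 and 160.0 (-0.018). Genes of S phase had a median of 0.10 over 43 genes, with 36 positive, 2 at least 25% higher and none 20% lower. Of all genes compared, 10.9% were higher and 12.7% lower by that fold. The highest was the cyclin E gene Ccne2 (243.5 and 316.2, 0.38) and the lowest the thymidylate synthase gene Tyms (91.1 and 79.9, -0.19).

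Marker genes of other cell types also differed between the samples. T-cell markers had a median of -0.0081 over 11 genes, 5 of them positive, and summed to 16194.1 in control and 17427.0 in exposed cells. They ran from Cd4 at 287.0 and 271.1 (-0.082) to the costimulatory receptor Cd28 at 1658.9 and 2319.2 (0.48), with Cd3d, a subunit of the T-cell receptor complex, at 3073.4 and 3505.9 (0.19) and its partner Cd3e at 770.9 and 763.9 (-0.013). B-cell markers were negative in 13 of 13 genes above the floor, from Vpreb3 (-1.26) to Pax5 (-0.15), with a median of -0.66 and sums of 2905.0 and 1870.4, while Cr2 lay under the floor. Macrophage and dendritic-cell markers were negative in 14 of 15 genes above the floor on both arrays, from Clec4e (-0.83) to the exception Csf1r (0.11). Their median was -0.47. The sums of the list were 4801.1 and 3500.8, with H2-Aa (1437.6 and 1080.8) and Ctss (1256.0 and 992.9) its brightest genes. Itgax (19.4 and 17.0), Cd14 (21.7 and 16.1), Lyz2 (29.4 and 19.5) and Csf1r (29.1 and 31.4) lay close to the floor. Which cells the bright signals of this list came from was not tested. Adgre1 (15.2 and 17.8) and Fcgr1 (12.6 and 17.0) passed the floor only in exposed cells. Lyz1 (41.3 and 7.5) and Clec4d (20.7 and 9.0) passed it only in control cells, and Itgam (6.0 and 13.9) on neither array. Of 20 RPE markers, only Serpinf1 (46 and 36) passed the floor on each array. The sums were 195.0 and 170.7, and the defining genes Rpe65 (5.3 and 2.3), Rlbp1 (7.0 and 7.5), Tyrp1 and Dct lay under the floor. B cells and dendritic cells can divide too, and the part of these shifts in the values of the mitosis genes was not tested. RNA integrity, read as the 3' over 5' signal of Gapdh, was alike in control and exposed cells, 0.80 each.

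**Figure D5:**
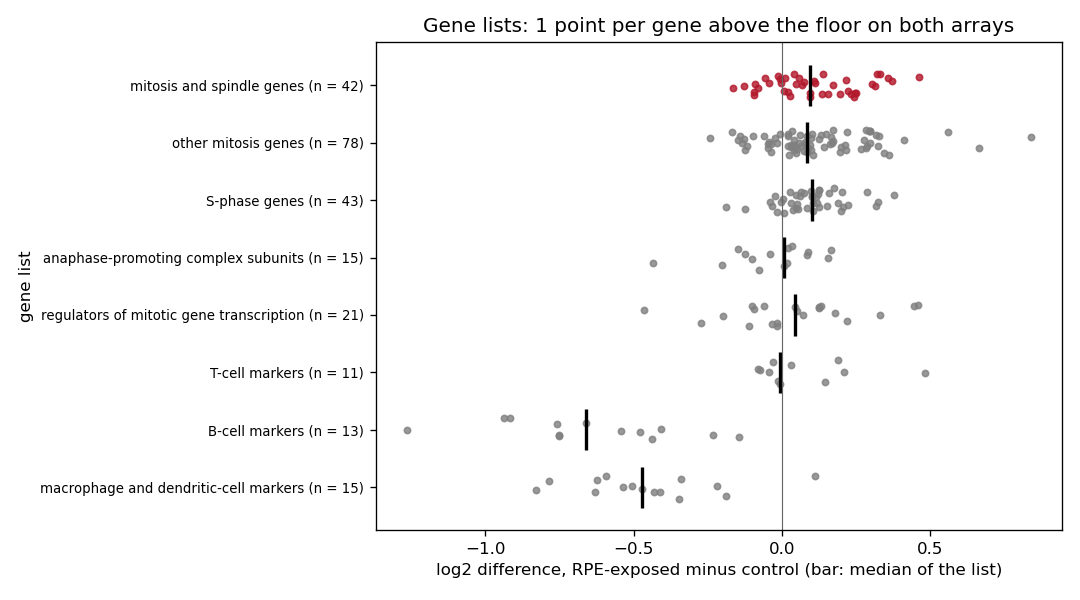
Log2 difference, RPE-exposed minus control, for each gene above the floor on both arrays in 8 gene lists, with a bar at each list's median. The mitosis and spindle genes (red), the other mitosis genes and the S-phase genes lie slightly right of 0, and the B-cell, macrophage and dendritic-cell markers lie to the left.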

How the data were processed

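Per the labels' protocols, total RNA was turned into biotin-labelled cRNA and read on 1-colour Affymetrix arrays. The authors' deposited values are linear intensities, 1 per probe set and array (45101 probe sets), with a trimmed mean of about 100.0 on each array, so they had been scaled before deposit. The summarization software is not given in the sources used here. Gene names came from the platform annotation, in which 932 probe sets name several genes. Those and 9160 unnamed ones were left out.

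From the intensities, signals under each array's median were set to it, and log2 differences, exposed minus control, were taken. A gene was represented by its brightest probe set. Genes whose signal passed the floor on either array (11042) were compared, without further scaling. Python 3.11.15 was used, with pandas 2.3.3 and numpy 2.4.6. The steps were tested on simulated data, with changes larger than any difference of the mitosis genes given here. That test therefore does not cover shifts as small as theirs. The members, lists and folds were chosen with earlier results of these data known. The rule for names took every member and, in each other list, the highest and lowest gene. Other named genes were chosen after their values were seen. Other floors, probe-set rules, scalings and an offset were tried as alternatives.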

Additional observations from a re-analysis of the deposited data

How the results depend on the processing

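No paired analysis was possible because each group held 1 array. Over 9 alternatives the median difference of the mitosis genes stayed positive, from 0.088 with quantile normalization and 0.086 against genes of like level to 0.105 with averaged probe sets or median centring. The share positive ran from 66.7% (28 of 42) with quantile normalization to 79.4% (27 of 34) when x, s and a probe sets (those marked as matching several transcripts) were left out. Over all genes in the same settings, the share positive ran from 47.6% to 50.1%. The number of mitosis genes at least 25% higher ran from 3 to 6. Of all genes, 5.88% (floor at the 75th percentile) to 22.4% (no floor) were 25% higher, and 6.97% to 22.1% were 20% lower. The number of mitosis genes at least 20% lower was 0 except with averaged probe sets (1, Spc25 at -0.46) and when the x, s and a probe sets were left out (2, Spc25 at -0.75 and Pttg1 at -0.49). In both of these, dim probe sets replace or join the brightest one. Averages also took in probe sets under the floor, with signals set to it. The sign of Anln turned only with averaged probe sets, through a probe set of 19.9 and 11.1 (-0.31), under the floor on the exposed array. The comparison with genes of like level was chosen after seeing the data. Of the 42 genes, 29 kept their sign in every alternative run and 13 took the other sign in at least 1. Of the 4 genes at least 25% higher, Birc5 stayed so in every alternative that measured it. Ccna2 (0.26) and Cdc25c (0.31) did not with averaged probe sets, nor Ccnb2 with quantile normalization (0.314) or against genes of like level (0.31). Dim probe sets carry the wide values of Spc25, Pttg1 and Nusap1.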

Other observations

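Among the other mitosis genes, those at least 25% higher besides Cdca3 and Depdc1b were Troap (34.3 and 50.6, 0.56), Ska3, a kinetochore protein (103.6 and 137.7, 0.41), Depdc1a (170.0 and 218.1, 0.36), Ckap2l (274.4 and 347.9, 0.34), Fam83d (74.1 and 93.0, 0.33) and Pimreg (166.6 and 208.3, 0.32). The difference of Cdca3 rests on 1 of its 3 probe sets, since the other 2 were under the floor on at least 1 array. A further probe set of Ckap2l gave -0.12, whereas both probe sets of Troap were positive, at 0.52 and 0.56.

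The CHR hexamer TTTGAA, on either strand, was found in 47.9% of 73 promoters of the other mitosis genes and in 19% of 42 promoters of the S-phase genes. Other mitosis genes with it had a median difference of 0.14 over 31 genes, and those without it 0.056 over 31 genes. In the S-phase list the order was the opposite, with 0.051 over 7 genes and 0.10 over 27 genes. Over all measured genes with a promoter at hand, the medians were 0.011 over 1165 genes with the hexamer and -0.014 over 7027 genes without it.

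A probe set that names Foxm1 together with 2 other genes, and so was left out, had signals of 124.0 and 115.7.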
